A study of Mus musculus with 10 samples.

Results

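The comparison set day 3 (D3) against day 2 (D2) of a culture course that leads mouse embryonic stem cells towards neuromesodermal progenitors, cells of the caudal epiblast that supply both spinal cord and paraxial mesoderm. It used 4 of the 10 RNA-seq libraries of the series, 2 per group, chosen by their labelled day, and 18818 of the 52459 genes in the deposited count table had enough counts to be tested. Every library came from ES-Bruce4, an established C57BL/6 embryonic stem cell line, wild type and without Gdf11 in these groups. The cells had been grown with serum and LIF on embryo fibroblast feeders, were depleted of feeders once, and were plated on gelatin. In both groups N2B27, a serum-free medium, replaced the stem cell medium on day 0, with bFgf at 10 ng/ml. The D2 libraries, labelled as epiblast stem cells, were taken at the end of this bFgf step. The D3 libraries, labelled as neuromesodermal progenitors, were taken 1 day after CHIR99021 was supplied at 5 µM on day 2. The cells were split on day 3, and the labels do not say whether collection came before or after the split. The labels also do not say whether bFgf was kept beside CHIR99021. A day 3 group without CHIR99021 was not analysed here, so the inhibitor, the further day in culture and any change in bFgf cannot be told apart. The other 3 groups (day 6, day 7, and day 7 with Gdf11 at 50 ng/ml) entered only the estimate of the spread, except where a later value is named.

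CHIR99021 inhibits Gsk3, the kinase that marks beta-catenin for destruction. With Gsk3 blocked, beta-catenin builds up, enters the nucleus and turns Tcf and Lef factors from repressors into activators at Wnt target genes, much as a Wnt ligand bound to Frizzled and Lrp receptors would do. Many targets encode inhibitors of the pathway itself, such as Axin2, Dkk1 and Notum, so activation brings its own brakes. In the embryo, Wnt and Fgf signalling in the caudal epiblast hold cells in a state from which both neural and mesodermal fates are open, while the anterior epiblast, shielded from Wnt, becomes forebrain. Gsk3 also acts on substrates outside the Wnt pathway, among them glycogen synthase and several transcription factors.

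Replicates lay close together. The 4 libraries held 31078950 to 31538887 counts, the replicates of D2 and of D3 correlated at 0.994 and 0.995 over genes in log2 CPM (counts scaled to library size), and D2 and D3 libraries correlated with each other at 0.962 to 0.963. These correlations are across genes, which are not independent replicates. The spread of replicates exceeded sampling noise (mean chi-square 1.95 per gene for D2 and 2.15 for D3), so they were kept as separate samples. The labels do not say whether they were separate cultures, and the p-values therefore rest on a spread between libraries that may be technical. A gene is said to have risen or fallen where its Benjamini-Hochberg adjusted p from edgeR's quasi-likelihood test was under 0.05, and differences are log2 fold changes of D3 over D2 ± SE. Of all tested genes 58.5% were called, 29.6% higher on D3 and 28.9% lower. A change of at least 2-fold was called in 14.2%, 8.67% higher and 5.51% lower, and the libraries of the 2 groups did not overlap in 79.5% of genes. The median over all tested genes was 0.00. Because so many genes were called, each gene list below is read against these shares and not by its number of calls alone. Named genes were mostly picked for the size of their change. Statements below that their libraries did not overlap, or that D3 was higher or lower in both replicates, describe them and add no support. RNA came from whole dishes, so a change in the number of cells of a type and a change of RNA per cell cannot be told apart.

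Markers of the labelled states were present in both groups. Primed epiblast genes were high on D2 (Dnmt3b at 1479.7 and 1469.9 CPM, Pou5f1 at 568 and 562 CPM). Naive pluripotency genes were present on D2 too: the 16 listed summed to 1294 and 1307 CPM, with Zfp42 at 22.5 and 24.1 CPM and Esrrb at 78.3 and 83.8 CPM. On D3 the caudal epiblast genes Nkx1-2 and Sp5 reached 235 and 236 CPM and 77.9 and 89.4 CPM. Markers of embryo fibroblasts were present in all 4 libraries: the 16 listed genes summed to 163 and 201 CPM on D2 and to 329 and 319 CPM on D3, none was at 0, and 10 of 16 rose. Their values are given again beside the matrix genes.

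**Figure D1:**
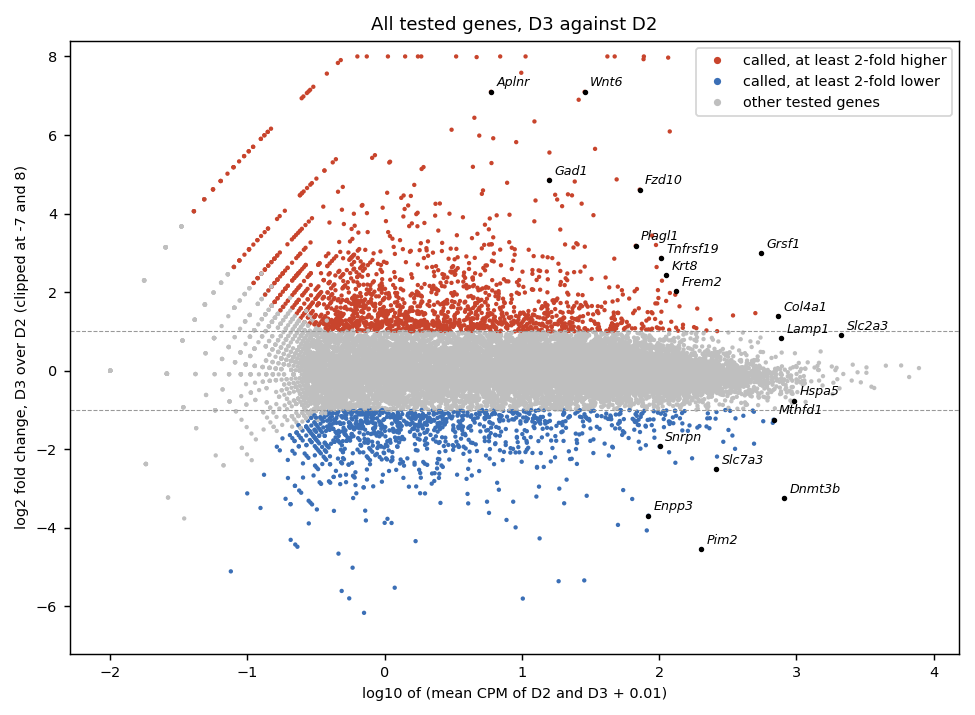
Log2 fold change of D3 over D2 (vertical axis, values beyond the limits written on it drawn at those limits) against log10 of the mean CPM of the D2 and D3 libraries (horizontal axis), 1 point per tested gene. Red points are the 1632 genes called and at least 2-fold higher on D3, blue points the 1036 called and at least 2-fold lower, and some genes named in the text are labelled, such as Grsf1 near 3 and Dnmt3b near -3.

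Wnt ligands rose as a group. Of 18 Wnt ligands tested, 13 rose, none fell and 5 did not pass, with a median of 1.75, and 11 rose at least 2-fold. Wnt6 went from 0.295 and 0.527 to 50 and 63.5 CPM, a difference of 7.10 ± 0.18 (adjusted p = 2.24e-17). Both D3 libraries were far above both D2 libraries. Wnt10a (chr1:74791516-74804179, mm10) lies beside Wnt6 (chr1:74771892-74785322) on the same strand. It went from 0.164 and 0.0659 to 2.45 and 2.78 CPM (4.46 ± 0.37). Wnt5b, a ligand best known for beta-catenin-independent signalling and gastrulation movements, went from 4.42 and 3.59 to 60.8 and 63.8 CPM (3.96 ± 0.10). Its relative Wnt5a went from 1.77 and 1.94 to 16.1 and 15.6 CPM (3.09 ± 0.12). The D2 and D3 libraries of these genes did not overlap. Wnt8a, a ligand of the posterior epiblast, went from 18.4 and 18.3 to 52.7 and 52.5 CPM (1.52 ± 0.07). Wnt3, needed to start the primitive streak, went from 2.52 and 2.34 to 8.79 and 8.54 CPM (1.83 ± 0.13), and Wnt10b rose by 2.63 ± 0.25 and Wnt11 by 1.68 ± 0.18. Wnt3a (chr11:59248033-59290752), a gene of the streak and tail bud, rose from 0.0655 and 0.132 to 19.4 and 19.9 CPM. Its neighbour Wnt9a (chr11:59306928-59333552), in the opposite orientation, had 9.17 and 8.6 CPM on D2 and 9.5 and 10.9 CPM on D3 and did not pass (0.20 ± 0.10, adjusted p = 0.0974, but 0.30 if D3 replicate 1 was left out, adjusted p = 0.0388). Wnt1 had no count in any of the 4 libraries and was not tested.

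Receptors did not move as a block. Of 16 receptors and co-receptors, 7 rose, 7 fell and 2 did not pass, with a median of 0.08. Frizzled receptors bind Wnt ligands through an extracellular cysteine-rich domain, and Fzd10 (chr5:128600844-128604093) had the largest rise: 6.16 and 5.17 CPM on D2 and 139 and 138 CPM on D3, a difference of 4.61 ± 0.07 (adjusted p = 1.39e-20). Fzd7, a Frizzled of pluripotent cells, went the other way with 211 and 212 CPM on D2 and 83.9 and 83 CPM on D3 (-1.34 ± 0.04, adjusted p = 1.27e-15). Both groups were tight and far apart for each gene. Fzd5 fell from 36.6 to 20 CPM (-0.87 ± 0.08), while Fzd8 rose from 4.14 to 8.82 CPM (1.09 ± 0.11), these and similar pairs being group means of 2 libraries. Ptk7, a pseudokinase co-receptor of the planar polarity branch, went from 266 and 268 to 729 and 745 CPM (1.47 ± 0.04). Ror2, a receptor of Wnt5a, rose by 0.89 ± 0.05, whereas Ror1 fell (-0.69 ± 0.10). Lrp6, the co-receptor of the beta-catenin branch, fell only slightly, with 140.1 and 148 CPM on D2 and 126 and 125 CPM on D3 (-0.20 ± 0.04).

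Secreted inhibitors moved both ways. Of 13 tested, 7 rose and 3 fell, and the 3 that fell belong to the secreted Frizzled-related proteins: Sfrp1 (116 and 116 to 44.4 and 42.4 CPM, -1.42 ± 0.05), Sfrp4 (-0.98 ± 0.22) and Sfrp5 (-1.76 ± 0.35). Sfrp2 rose slightly, by 0.24 ± 0.06. Dkk1, which blocks Lrp co-receptors, went from 2.19 and 1.88 to 9.65 and 10.5 CPM (2.31 ± 0.17). Dkk4, a known direct Wnt target of the same family, had 0 counts in both D2 libraries and 3.71 and 3.24 CPM on D3. With 3 counts over the group as the floor it was at least 70.5-fold higher. Sost, an inhibitor best known from bone, went from 0.0655 and 0.132 to 1.69 and 1.94 CPM (4.15 ± 0.39), and Frzb, a further Frizzled-related inhibitor, from 1.41 and 1.09 to 4.2 and 4.26 CPM (1.76 ± 0.20). Dkk3 had 8.78 and 9.81 CPM on D2 and 9.44 and 8.85 CPM on D3 and did not pass. Cer1 was below the count filter, with 8 and 9 counts on D2 and 0 and 1 on D3.

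Feedback and receptor-turnover genes mostly rose: 9 of 14 higher, 3 lower, median 1.14. Nkd1, which binds Dishevelled and dampens the pathway, went from 7.34 and 8.46 to 44.3 and 46.5 CPM (2.52 ± 0.10). Lgr5, a receptor for R-spondins and a stem cell marker, went from 0.524 and 0.889 to 5.61 and 4.63 CPM (2.85 ± 0.25). Its relative Lgr4 moved the opposite way, from 137 and 139.5 to 75.8 and 71.5 CPM (-0.91 ± 0.04). The ubiquitin ligases Rnf43 and Znrf3, which remove Frizzled from the cell surface, rose by 1.47 ± 0.14 and 0.81 ± 0.06. Sp8, a zinc-finger factor related to Sp5, went from 7.04 and 6.59 to 35.1 and 34.6 CPM (2.35 ± 0.09). Among the Tcf and Lef factors and their partners 8 of 13 rose and 4 fell. Tcf7l1, the member that mainly represses, went from 51.7 and 53.3 to 22.4 and 24.7 CPM (-1.16 ± 0.07), while Tcf7 and Lef1, the usual activators, rose by 0.64 ± 0.04 and 0.38 ± 0.06. Bcl9l and Pygo1, co-activators that dock on beta-catenin, rose by 1.06 ± 0.06 and 1.05 ± 0.12. The destruction complex itself hardly moved: none of its 12 genes changed 2-fold, and Ctnnb1, the beta-catenin gene, had 1119 and 1147 CPM on D2 and 1179 and 1176 CPM on D3 (0.06 ± 0.03, adjusted p = 0.18). The overlapping libraries of Gsk3b, a target of the inhibitor, gave 101 and 98.7 CPM on D2 and 95.1 and 100.0 CPM on D3 (-0.03 ± 0.04, adjusted p = 0.542). Gsk3a, also a target, was called slightly lower (-0.10). It lost the call with DESeq2 and with library totals, and its difference lay between -0.12 and -0.02 over the alternatives. In that list 3 genes rose and 5 fell, but only 2 fell without D2 replicate 2 and 3 without either D3 replicate.

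**Figure D2:**
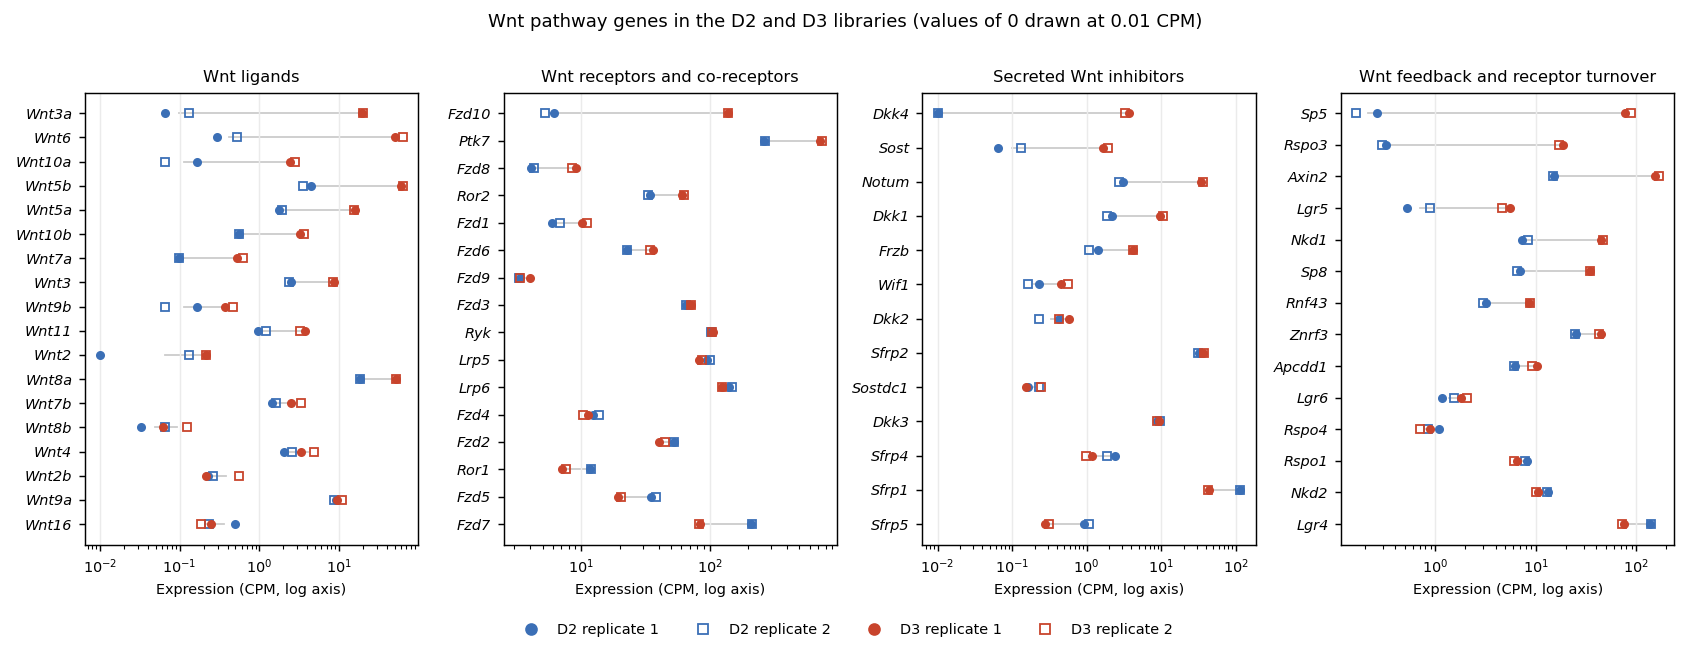
Expression in CPM (log axis, values of 0 drawn at 0.01) of the Wnt ligands, receptors, secreted inhibitors and feedback genes in the 2 D2 libraries (blue) and the 2 D3 libraries (red), with lines joining the group means. Ligands and feedback genes lie mostly to the right on D3 (13 of 18 and 9 of 14 rose), while receptors fall on both sides (7 rose and 7 fell).

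Promoter letters were read for these genes to show where the Tcf/Lef core occurs in members that hold it. The windows come from RefSeq on GRCm38.p6, cover 250 bases before to 50 after each start site, and were matched by symbol to 12194 of the 18818 tested genes (15566 windows). The core CTTTGA was searched on both strands. It was in 12.1% of all windows, in 16.1% of those of genes at least 2-fold higher and in 13.3% of those at least 2-fold lower. It was in 2 of 7 windows of the secreted inhibitors, 2 of 13 of the feedback genes and 2 of 17 of the ligands. A match describes letters and is not a binding site. The lines that follow give the 250 bases before the start site of the 4 feedback and inhibitor genes with a match, 5′ to 3′ on the gene's strand, with the core (CTTTGA, or TCAAAG where it lies on the other strand) in capitals.
Sp5 (chr2:70474673-70474922, plus strand): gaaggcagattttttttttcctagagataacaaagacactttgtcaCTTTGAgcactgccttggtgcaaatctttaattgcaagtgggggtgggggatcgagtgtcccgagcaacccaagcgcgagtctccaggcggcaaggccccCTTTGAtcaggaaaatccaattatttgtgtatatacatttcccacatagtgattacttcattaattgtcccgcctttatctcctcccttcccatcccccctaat
Sp8 (chr12:118846983-118847232, plus strand): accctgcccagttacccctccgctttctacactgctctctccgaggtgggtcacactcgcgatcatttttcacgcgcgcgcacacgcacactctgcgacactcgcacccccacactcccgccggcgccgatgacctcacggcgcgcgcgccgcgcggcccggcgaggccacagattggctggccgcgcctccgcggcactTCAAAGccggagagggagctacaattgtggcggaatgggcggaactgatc
Dkk1 (chr19:30549497-30549746, minus strand): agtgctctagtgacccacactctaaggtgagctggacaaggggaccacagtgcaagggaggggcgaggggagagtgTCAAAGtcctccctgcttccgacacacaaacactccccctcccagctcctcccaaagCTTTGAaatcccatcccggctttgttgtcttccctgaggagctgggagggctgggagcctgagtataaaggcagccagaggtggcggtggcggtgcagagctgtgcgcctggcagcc
Frzb (chr2:80447397-80447646, minus strand): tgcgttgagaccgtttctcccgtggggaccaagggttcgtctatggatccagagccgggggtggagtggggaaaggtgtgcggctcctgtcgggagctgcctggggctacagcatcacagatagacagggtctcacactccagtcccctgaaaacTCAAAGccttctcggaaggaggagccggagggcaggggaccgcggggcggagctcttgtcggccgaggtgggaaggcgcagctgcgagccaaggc

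Sp5 and Dkk1 each showed 2 cores in this stretch, and Sp8 and Frzb 1 each. These genes were picked for their match, and others of the same lists rose without one. The windows of Sost (log2 fold change 4.15), Axin2 (3.44), Nkd1 (2.52) and Rnf43 (1.47) held no core, although all 4 genes rose, as did Sp5 (8.59), Sp8 (2.35), Dkk1 (2.31) and Frzb (1.76).

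Over all tested genes, Wnt pathway members included, 222 rose and 57 fell at least 8-fold. Aplnr, the apelin receptor of early mesoderm and endothelium, went from 0.0655 and 0.0988 to 11.3 and 12.2 CPM (7.10 ± 0.28, adjusted p = 3e-14). Arg1, the urea-cycle arginase, went from 0.164 and 0.132 to 9.53 and 9.69 CPM (5.99 ± 0.24), and Slc9a9, an endosomal sodium-proton exchanger, from 0.196 and 0.198 to 13.6 and 10.6 CPM (5.92 ± 0.25). In all of these the D2 libraries were near 0 and the D3 libraries were not. Gad1, which makes the neurotransmitter GABA from glutamate, went from 1.08 and 1.02 to 29.6 and 31.6 CPM (4.86 ± 0.13). It lies on the same strand downstream of Sp5 on chromosome 2 (chr2:70553072-70602014 against chr2:70474923-70477729). On day 6 Gad1 stood at 5.16 CPM, still above its D2 values. Wfikkn1, a secreted protease-inhibitor-like protein that binds Gdf8 and Gdf11, rose by 4.50 ± 0.19. Zfp503, a zinc-finger repressor, rose from 1.8 and 1.88 to 42 and 40.8 CPM (4.49 ± 0.09).

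Counted in CPM, which weighs abundant and long transcripts more, the largest rise among 2-fold genes was in Grsf1 (chr5:88659448-88676171), which encodes an RNA-binding protein of mitochondrial RNA granules. It had 121 and 127 CPM on D2 and 974 and 992 CPM on D3, a difference of 2.99 ± 0.04 (adjusted p = 3.54e-21), and 375 CPM on day 6. Both D3 libraries lay well clear of all D2 values. Tnfrsf19 (Troy), a receptor of the tumour necrosis factor family and a known Wnt target, went from 25.3 and 24.5 to 177 and 187 CPM (2.87 ± 0.05). Frem2, a basement membrane protein, went from 50.7 and 54.9 to 211 and 217 CPM (2.02 ± 0.06). Neat1, the long non-coding RNA that scaffolds paraspeckles, went from 93.8 and 95.8 to 291 and 277 CPM (1.58 ± 0.05). Sulf2, an extracellular sulfatase that trims heparan sulfate, went from 179 and 172 to 351 and 354 CPM (1.01 ± 0.04), and Scpep1, a serine carboxypeptidase, from 137 and 135 to 325 and 348 CPM (1.31 ± 0.04).

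The falls held both regulators and metabolic genes. Spon1, a matrix protein of the spondin family, went from 24.1 and 27 to 1.29 and 1.36 CPM (-4.27 ± 0.12). Enpp3, an ectonucleotidase, went from 155 and 156 to 12.5 and 11.5 CPM (-3.69 ± 0.07, adjusted p = 9.9e-20). Both genes were high in both D2 libraries and low in both D3 libraries. Myrf, a membrane-tethered transcription factor, went from 114 and 117 to 12 and 11.9 CPM (-3.27 ± 0.07), and Derl3, of the machinery that exports misfolded proteins from the endoplasmic reticulum, from 7.47 and 7.31 to 0.582 and 0.833 CPM (-3.38 ± 0.21). Foxd3, a forkhead repressor of the primed epiblast and of neural crest, fell from 14.8 and 16.6 to 1.59 and 1.51 CPM (-3.33 ± 0.13). Among abundant transcripts, L1td1, an RNA-binding protein derived from a retrotransposon, fell from 577 and 563 to 143 and 144 CPM (-1.99 ± 0.07). Lrp2 (megalin), an endocytic receptor, fell from 518 to 165 CPM and Mthfd1, a folate-cycle enzyme, from 959 to 404 CPM (-1.25 ± 0.04). Tuba1a, an alpha-tubulin, fell from 810.4 and 815 to 334 and 332 CPM (-1.29 ± 0.04), with the caution that tubulin genes have near-identical copies. The stress-granule protein gene G3bp2 (-1.33 ± 0.04) and the ubiquitin ligase gene Mkrn1 (-1.04 ± 0.04) also fell.

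**Figure D3:**
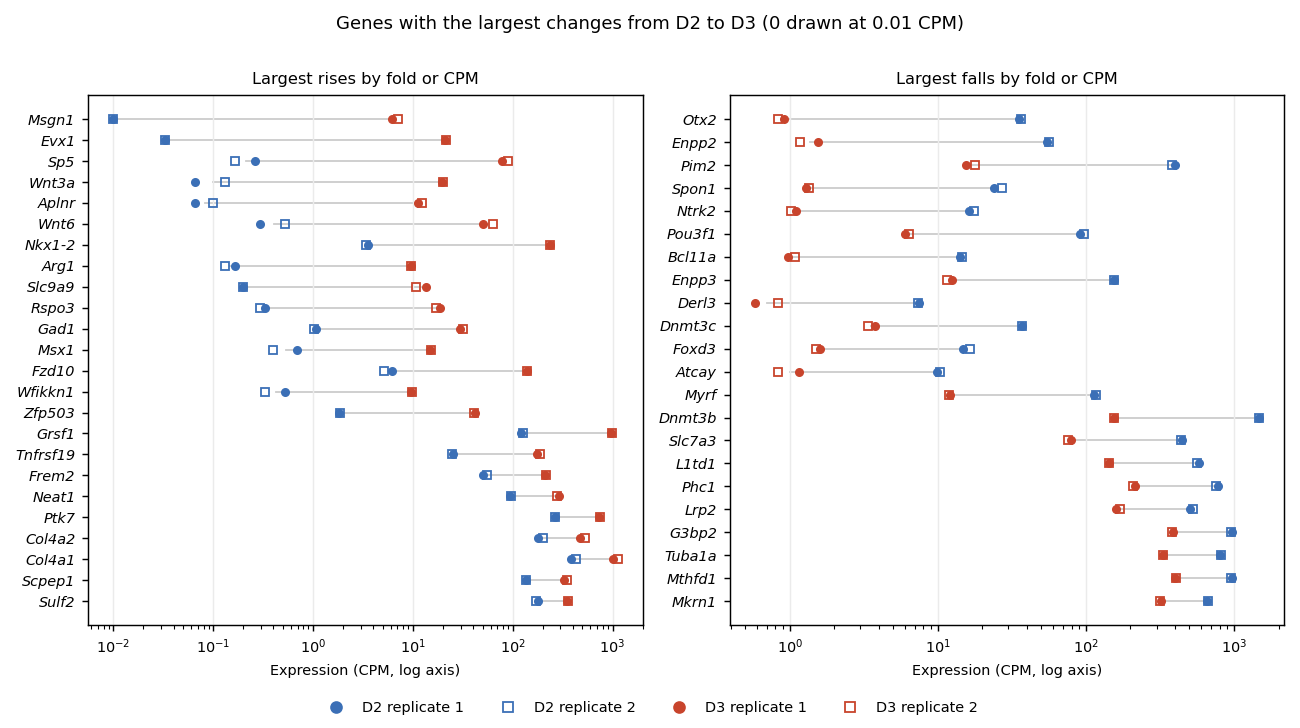
Expression in CPM (log axis, values of 0 drawn at 0.01) of the genes reported here with the largest rises (left) and falls (right) by fold or by CPM, in the D2 libraries (blue) and D3 libraries (red), with lines joining the group means. The 2 groups do not overlap in any gene drawn, which the choice by fold required, and replicates lie close together beside the distance between days.

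De novo DNA methylation genes fell together. Dnmt3b, a methyltransferase that sets new methylation marks at implantation, had 1479.7 and 1469.9 CPM on D2 and 156 and 156 CPM on D3, a difference of -3.24 ± 0.04 (adjusted p = 2.89e-22). Dnmt3a, its partner enzyme, went from 458 and 455 to 132 and 128 CPM (-1.81 ± 0.04), and Dnmt3l, the catalytically inactive cofactor, from 151 and 152 to 62.3 and 66.6 CPM (-1.23 ± 0.07). Each of the 3 was lower in both D3 libraries. Dnmt3c, a rodent duplicate beside Dnmt3b (chr2:153696652-153729907 and chr2:153649450-153687730), fell too (-3.37 ± 0.10), but the copies are close in sequence and how shared reads were counted is not stated. The maintenance genes Dnmt1 (0.05 ± 0.03, adjusted p = 0.206) and Uhrf1 (-0.08 ± 0.05, adjusted p = 0.178) did not pass. Tet1, which oxidises methylcytosine, fell from 349 and 372 to 155 and 154 CPM (-1.22 ± 0.04). In the whole list 8 of 12 fell and 2 rose, the latter being 1 without D2 replicate 1 or D3 replicate 1.

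Germline genes that promoter methylation normally keeps silent also fell: 10 of 14 tested lower, 1 higher, median -0.95, against a median of 0.00 over all genes. Sycp1, of the meiotic synaptonemal complex, went from 5.21 and 6.69 to 1.65 and 1.45 CPM (-1.93 ± 0.18), Mael, of the piRNA pathway, from 12 and 12 to 3.49 and 2.96 CPM (-1.89 ± 0.12), and Tdrd1, a Tudor protein of the same pathway, from 7.96 and 8.33 to 2.76 and 2.9 CPM (-1.52 ± 0.13). Cyct, the testis cytochrome c, fell from 21 and 20.7 to 7.45 and 7.5 CPM (-1.48 ± 0.10). The groups did not overlap in these 4 genes, as in 79.5% of all tested genes. Methylation was not measured in these libraries.

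Most Polycomb and Trithorax genes changed, but few by much. Of 24, 6 rose (3 without D2 replicate 1), 12 fell and 6 did not pass, and only 2 changed at least 2-fold, both lower. Phc1, a subunit of Polycomb complex 1, went from 779 and 759.8 to 215 and 209 CPM (-1.86 ± 0.04, adjusted p = 1.94e-18). Utf1, a chromatin factor of pluripotent cells, went from 188 and 194 to 43.9 and 46.7 CPM (-2.08 ± 0.05). Cbx7, the chromodomain subunit typical of stem cells, went from 381 and 371 to 205 and 207 CPM (-0.87 ± 0.04), and Jarid2, which recruits Polycomb complex 2, from 292 and 291 to 166 and 161 CPM (-0.84 ± 0.04). The D2 libraries were higher in each of them. Suz12, a core subunit of complex 2, had 314 and 317 CPM on D2 and 301 and 293 CPM on D3 and did not pass (-0.09 ± 0.04). Histone variants and linkers fell in 7 of 12 and rose in 2: H1fx, a linker histone, went from 32.3 and 33.1 to 16.2 and 17.2 CPM (-0.97 ± 0.07), and H1f0 did not pass (-0.07 ± 0.04).

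Imprinted genes, expressed from 1 parental copy, went both ways, with 13 of 25 higher and 9 lower. Plagl1, a zinc-finger factor that links many imprinted genes, went from 13.4 and 13.4 to 128 and 115 CPM (3.18 ± 0.06, adjusted p = 7.23e-19). Igf2, the embryonic insulin-like growth factor, went from 38.7 and 37.4 to 147 and 168 CPM (2.05 ± 0.06). Airn, the antisense RNA of the Igf2r locus, went from 0.655 and 0.626 to 4.17 and 3.98 CPM (2.66 ± 0.21), though the counting may have ignored strand, which is not stated, and reads of Igf2r could enter its count. Snrpn, of the Prader-Willi locus, went from 166 and 152 to 40.8 and 42.9 CPM (-1.93 ± 0.05). Both D3 libraries were low. The 3 maternally expressed non-coding RNAs of 1 locus on chromosome 12 all fell: Meg3 (chr12:109541001-109571726, -0.95 ± 0.08), Rian (chr12:109603940-109661716, -1.47 ± 0.08) and Mirg (chr12:109729764-109749460, -1.73 ± 0.26). Dlk1, the paternally expressed gene at the same locus, did not pass (0.36 ± 0.18, adjusted p = 0.0852).

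Fgf genes moved in both directions. Of 15 ligands and receptors 6 rose and 6 fell. Fgf8, the main ligand of the caudal epiblast, went from 1.28 and 1.71 to 30.7 and 36.1 CPM (4.48 ± 0.13, adjusted p = 3.74e-16), Fgf17, of the same subfamily, from 5.34 and 5.14 to 20 and 23.7 CPM (2.06 ± 0.13), and Fgf9 from 0.131 and 0.165 to 1.07 and 0.894 CPM (2.70 ± 0.40). D3 was higher in both replicates of each. Fgf1 fell from 2.69 and 3.43 to 0.98 and 0.864 CPM (-1.72 ± 0.22). Of 12 genes that report or restrain Erk signalling 3 rose and 6 fell. Spry2, a Sprouty inhibitor, went from 131 and 128 to 75.1 and 76.2 CPM (-0.78 ± 0.05), and Etv1, an Ets factor induced by Fgf, from 30.4 and 29.3 to 15.6 and 14.6 CPM (-0.98 ± 0.09). Dusp4, a phosphatase of Erk, and Il17rd (Sef), a membrane inhibitor, rose by 0.88 ± 0.05 and 0.74 ± 0.05. Spry4 had 38.8 and 38.1 CPM on D2 and 36.1 and 37 CPM on D3 and did not pass (-0.07 ± 0.06).

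Nodal pathway genes fell in 7 of 16 and rose in 3. Tdgf1 (Cripto), the co-receptor of Nodal, had 294 and 278 CPM on D2 and 63.9 and 58.1 CPM on D3, a difference of -2.23 ± 0.06 (adjusted p = 1.07e-16). Foxh1, the DNA-binding partner of Smad2, fell from 68 and 64.8 to 40.6 and 40.9 CPM (-0.70 ± 0.06), and Acvr2b, a type II receptor, from 55.7 and 58.2 to 37.4 and 36.3 CPM (-0.63 ± 0.05). Acvr1b, a type I receptor, had 46.9 and 50.1 CPM on D2 and 47.7 and 48.4 CPM on D3 and did not pass (-0.01 ± 0.06). Bmp genes moved more upward, with 8 of 17 higher and 4 lower (2 without D2 replicate 2 or D3 replicate 2). Among them were both ligands and their antagonists. Bmp2 went from 0.524 and 0.593 to 4.32 and 4.97 CPM (3.05 ± 0.22), while the antagonists Fst, Grem1 and Nog went from 12.3 and 10.5 to 85.4 and 79.9 CPM (2.85 ± 0.08), 1.18 and 1.58 to 7.69 and 7.74 CPM (2.48 ± 0.16) and 0.196 and 0.165 to 0.98 and 1.33 CPM (2.65 ± 0.35). In these 4 genes the D3 libraries were the higher ones. The receptor Bmpr1a had 179.9 and 184 CPM on D2 and 187 and 184 CPM on D3 and did not pass (0.03 ± 0.04).

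Notch genes and the Hes and Hey repressors they control also rose in part. Of 14 ligands, receptors and modifiers 6 rose and 4 fell. Of 8 repressors 6 rose, 1 fell and 1 did not pass, with a median of 1.11. The summed CPM of the repressors hardly differed, at 83.1 and 80.9 on D2 and 83.9 and 81.1 on D3. Hes7, the oscillator of the presomitic mesoderm, went from 0.229 and 0.263 to 3.19 and 3.21 CPM (3.68 ± 0.30), Hes5 from 0.426 and 0.527 to 2.57 and 2.68 CPM (2.45 ± 0.24) and Hes3 from 0.851 and 0.79 to 3.71 and 3.67 CPM (2.16 ± 0.19). D2 and D3 did not overlap in any of the 3. Dll1, the ligand of caudal mesoderm and neural progenitors, went from 22.2 and 20 to 36.8 and 37.7 CPM (0.82 ± 0.06). Nrarp, a Notch-induced feedback protein, rose from 7.57 to 19.3 CPM (1.35 ± 0.08), and Lfng, the glycosyltransferase that modifies Notch, fell from 9.01 and 9.12 to 5.73 and 6.08 CPM (-0.62 ± 0.11). Retinoic acid genes rose in 10 of 17 and fell in 4. Cyp26a1, which breaks retinoic acid down in the tail bud, went from 2.16 and 2.57 to 19.4 and 20.6 CPM (3.08 ± 0.14), and Aldh1a2, which makes it in mesoderm, from 2.33 and 2.04 to 8.46 and 8.85 CPM (1.98 ± 0.14). Enzymes of both directions were thus higher on D3.

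Receptor tyrosine kinases and their ligands rose in 16 of 22, fell in 2 (1 without D2 replicate 2 or D3 replicate 1) and had a median of 1.05, with 11 at least 2-fold higher. Pdgfa, a platelet-derived growth factor, went from 7.86 and 7.87 to 48.8 and 50 CPM (2.65 ± 0.07, adjusted p = 2.46e-17). Pdgfrb, a receptor of mesenchymal cells, went from 3.08 and 3.29 to 14.5 and 15.9 CPM (2.25 ± 0.15). Both genes were higher in both D3 libraries. Erbb4, a neuregulin receptor, rose from 0.262 and 0.0988 to 0.797 and 0.771 CPM (2.09 ± 0.47), while Erbb3 had 41.9 and 45.6 CPM on D2 and 44.7 and 47.2 CPM on D3 and did not pass. Igf1r, the receptor for Igf2, had 90.6 and 92.7 CPM on D2 and 87.4 and 83.8 CPM on D3 and did not pass (-0.10 ± 0.06, adjusted p = 0.158).

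Cell-guidance genes rose more often than they fell. Of 19 Eph receptors and ephrins 12 rose and 5 fell. Epha5 went from 0.229 and 0.296 to 3.89 and 3.33 CPM (3.76 ± 0.25), whereas Epha3 went from 2.75 and 2.77 to 0.49 and 0.555 CPM (-2.39 ± 0.23). Efnb1, an ephrin of mesoderm and somites, rose from 13.7 and 13.1 to 41.7 and 47.4 CPM (1.74 ± 0.07). Among 29 semaphorins, plexins, Slit, Robo and netrin genes 15 rose and 6 fell. Sema3a, a repulsive guidance cue, went from 1.38 and 1.65 to 14.6 and 14.7 CPM (3.27 ± 0.12), its co-receptor family member Nrp2 from 6.22 and 6.82 to 36.3 and 36.3 CPM (2.48 ± 0.07), the Slit receptor Robo2 from 1.77 and 1.35 to 9.9 and 8.48 CPM (2.56 ± 0.14) and the netrin receptor Dcc from 0.262 and 0.263 to 1.96 and 1.6 CPM (2.74 ± 0.37). D3 libraries were the higher ones throughout these 4. Planar cell polarity genes, which orient cells in a sheet, rose in 6 of 12 and fell in 5. Prickle1 went from 28.1 and 26.6 to 67.3 and 68 CPM (1.31 ± 0.06), Prickle2 from 5.53 and 6.46 to 14.4 and 14.4 CPM (1.27 ± 0.10) and Vangl1 from 25.7 and 26 to 47.3 and 52.6 CPM (0.95 ± 0.07).

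Genes of amino acid supply and of the endoplasmic reticulum fell together. Atf4 is a transcription factor made when cells lack amino acids or fold proteins poorly, and its targets import and synthesise amino acids. Of 22 genes of this list 18 fell, 3 rose and 1 did not pass, with a median of -0.81, and 10 fell at least 2-fold (45.5%, against 5.51% of all genes). Slc7a3, an importer of arginine and lysine, had 447 and 436 CPM on D2 and 80 and 75.5 CPM on D3, a difference of -2.51 ± 0.04 (adjusted p = 1.34e-20). Mthfd2, a mitochondrial folate enzyme, went from 159.6 and 157 to 58.1 and 58.7 CPM (-1.44 ± 0.04), and Chac1, a glutathione-degrading enzyme, from 28.3 and 24.9 to 10.1 and 11.1 CPM (-1.33 ± 0.08). All D3 values were below all D2 values. Not every target fell: Ddit4 rose from 135 to 243 CPM (0.85 ± 0.04) and Asns, asparagine synthetase, from 433 to 516 CPM (0.25 ± 0.03). Atf4 itself fell slightly (-0.35 ± 0.04). Vldlr did not pass (0.11 ± 0.07).

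The unfolded protein response list, chaperones and sensors of the endoplasmic reticulum, fell in 15 of 16 genes, with a median of -0.46. Manf, a secreted stress-induced protein, went from 130.4 and 125 to 68.8 and 74.5 CPM (-0.83 ± 0.05). Hsp90b1 (Grp94) had 1492 and 1467 CPM on D2 and 829 and 877 CPM on D3 (-0.79 ± 0.04, adjusted p = 2.75e-13), and Hspa5 (BiP), the main chaperone of the compartment, 1197 and 1213 CPM on D2 and 694 and 725 CPM on D3 (-0.76 ± 0.03, adjusted p = 2.08e-13). The changes were under 2-fold and the groups did not overlap. Pdia4, a disulfide isomerase, fell from 217 and 213 to 129.9 and 137 CPM (-0.69 ± 0.04). The sensor gene Ern1 did not pass (0.17 ± 0.07, adjusted p = 0.055) but was called higher without D3 replicate 1 (0.24, adjusted p = 0.0282). Heat shock protein genes fell in 7 of 14 and rose in 2 (1 with DESeq2). Hsp90aa1 had 1013 and 1009.9 CPM on D2 and 698 and 684 CPM on D3 (-0.55 ± 0.04). Hsf1, the factor that drives them, did not pass (0.06 ± 0.06).

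Element letters were searched in the promoter windows of these lists and of the lysosome list described next. The ER stress element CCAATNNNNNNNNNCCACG, either strand, was in 6 of 14 windows of the unfolded protein response list (42.9%) and in 0.122% of all windows. The Atf4 element TGATGNAA was in 7 of 20 windows of the Atf4 list (35%), among them that of Asns, which rose, and in 2.27% of all windows. The motif CACGTG, which Tfeb and other factors can bind, was in 7 of 22 windows of the lysosome list (31.8%) and in 9.51% of all windows. The lists were drawn up from knowledge of such regulation, so these shares describe how the lists were made as much as the genome. For each motif 1 gene is shown, chosen after its values were seen, as the 250 bases before the start site with the motif or its reverse complement in capitals.
Hsp90b1 (chr10:86705445-86705694, minus strand): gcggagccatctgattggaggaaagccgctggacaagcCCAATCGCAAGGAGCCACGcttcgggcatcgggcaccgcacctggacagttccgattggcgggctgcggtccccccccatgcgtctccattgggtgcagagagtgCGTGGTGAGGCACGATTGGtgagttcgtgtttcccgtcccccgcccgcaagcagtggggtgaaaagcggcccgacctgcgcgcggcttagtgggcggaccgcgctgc
Chac1 (chr2:119350992-119351241, plus strand): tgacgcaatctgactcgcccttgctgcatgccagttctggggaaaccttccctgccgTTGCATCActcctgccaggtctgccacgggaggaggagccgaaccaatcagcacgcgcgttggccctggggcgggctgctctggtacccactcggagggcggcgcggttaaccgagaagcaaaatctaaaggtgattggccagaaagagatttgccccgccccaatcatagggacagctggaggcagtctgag
Ctsd (chr7:142387828-142388077, minus strand): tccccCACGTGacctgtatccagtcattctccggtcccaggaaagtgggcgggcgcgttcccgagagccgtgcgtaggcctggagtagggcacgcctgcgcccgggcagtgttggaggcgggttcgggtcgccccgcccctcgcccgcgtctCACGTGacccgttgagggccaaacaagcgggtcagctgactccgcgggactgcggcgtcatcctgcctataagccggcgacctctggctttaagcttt

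Hsp90b1 and Ctsd held 2 matches each in this stretch and Chac1 1 match. Hsp90b1 and Chac1 fell, while Ctsd rose.

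Lysosome and autophagy genes rose as a list: 20 of 23 higher, 2 lower, 1 not passing, median 0.52. Lysosomes digest proteins, lipids and sugars, and Tfeb and Tfe3 are related factors that can switch on their genes. Ctsd, the aspartic protease cathepsin D, went from 144 and 147 to 297 and 295 CPM (1.03 ± 0.04, adjusted p = 4.48e-14), and Hexa, a hexosaminidase, from 112 and 115 to 248 and 242 CPM (1.11 ± 0.04). Both were higher in both D3 libraries. Lamp1, a membrane glycoprotein of the compartment, rose from 548 and 569.6 to 1003 and 985 CPM (0.83 ± 0.04). The regulators went opposite ways, with Tfeb at 3.37 and 3.03 CPM on D2 and 9.71 and 8.88 CPM on D3 (1.54 ± 0.12) and Tfe3 at 149.9 and 149.7 CPM on D2 and 85.7 and 86.9 CPM on D3 (-0.80 ± 0.04). Wipi1 had 17.3 and 16.9 CPM on D2 and 15.1 and 15.1 CPM on D3 and did not pass (-0.18 ± 0.08).

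The 3 lists did not keep these positions later in the course. Among members with at least 1 CPM on D2, the median log2 ratio of group means to D2 was -0.74 on day 3, 0.02 on day 6 and 0.06 on day 7 for the Atf4 list. It was -0.46, -0.03 and -0.15 for the unfolded protein response and 0.52, -0.26 and 0.05 for the lysosome list. The ratios share the D2 libraries and are given as a description. Slc7a3 stayed low, at 78.9 CPM on day 6, while Mthfd2 stood at 167 CPM and Hspa5 at 1331 CPM.

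**Figure D4:**
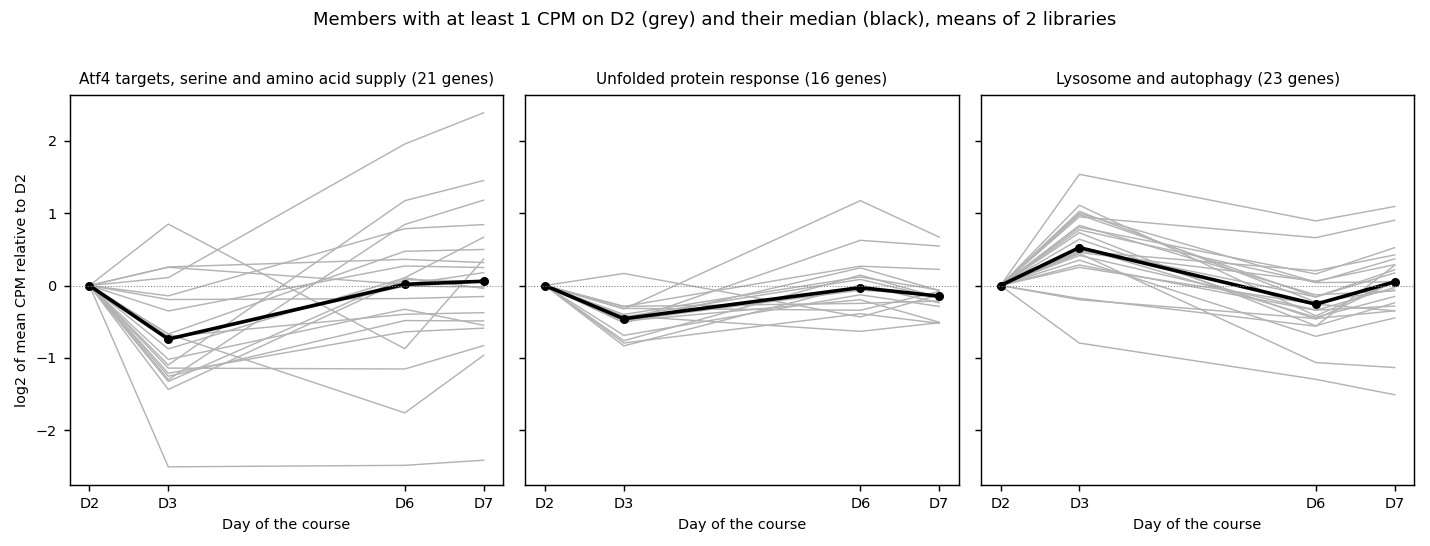
Log2 of the mean CPM (2 libraries per group) relative to D2 over the days of the untreated course, for members with at least 1 CPM on D2 of the Atf4 list (21 genes), the unfolded protein response list (16 genes) and the lysosome list (23 genes). Grey lines are genes and the black line is their median, which is -0.74, -0.46 and 0.52 on D3 and 0.02, -0.03 and -0.26 on D6.

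Glycolysis fell too. Of 20 enzymes and transporters 15 fell, 2 rose and 3 did not pass, with a median of -0.58. Pfkl, the liver-type phosphofructokinase and a rate-limiting step, went from 319 and 334 to 141 and 141 CPM (-1.21 ± 0.04, adjusted p = 7.81e-16), Pfkm, the muscle type, from 81 and 81.6 to 41.6 and 41 CPM (-0.98 ± 0.05), and the lactate exporter Slc16a3 from 107 and 114 to 30.3 and 32.8 CPM (-1.81 ± 0.07). The 2 that rose were transporters: Slc2a3 (Glut3), with high affinity for glucose, went from 1466 and 1500.4 to 2674 and 2869 CPM (0.90 ± 0.05, adjusted p = 1.59e-11), and the lactate and pyruvate carrier Slc16a1 from 304 and 306 to 354 and 354 CPM (0.21 ± 0.04). Eno1 had 686 and 702 CPM on D2 and 683 and 679 CPM on D3 and did not pass (-0.03 ± 0.04). Counts of Gapdh, Pgk1 and Pgam1 are uncertain because of processed pseudogenes. Glycogen metabolism, where Gsk3 acts on glycogen synthase protein, had 6 of 17 genes higher, 3 lower and 8 not passing. The share called, 52.9%, was below the 58.5% of all tested genes. The genes named next are all from those that rose. Gyg, the glycogenin primer, went from 20.4 and 21.5 to 50.2 and 45.6 CPM (1.19 ± 0.07), and Stbd1, which tethers glycogen, from 7.14 and 6.82 to 11.6 and 11.8 CPM (0.75 ± 0.10), while Ppp1r3c, a glycogen-targeting phosphatase subunit, rose from 1.02 and 0.79 to 2.11 and 1.88 CPM (1.14 ± 0.22).

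Respiratory chain and ribosomal protein genes moved little. Of 22 nuclear genes of the respiratory chain 5 rose, 7 fell and 10 did not pass, none changed 2-fold, and the number higher was 2 without either D2 replicate and 3 without D3 replicate 1, and the number lower 4 without D3 replicate 2. Atp5b, of ATP synthase, had 2056 and 2053 CPM on D2 and 1652 and 1672 CPM on D3 (-0.31 ± 0.03). Of 7 mitochondrially encoded genes tested, 1 rose (none without D2 replicate 2 or D3 replicate 1), and mt-Cytb had 3402 and 3183 CPM on D2 and 3211 and 3137 CPM on D3 (-0.05 ± 0.04, adjusted p = 0.244). A further 6 are listed at 0 in all 4 libraries. With the deposited counts per Ensembl gene 10 members of this list had enough counts to be tested, so the zeros need not describe the cells. Their cause was not tested. Of 30 ribosomal protein genes 7 rose and 5 fell, all by little, and these counts fell to between 2 and 3 without D2 replicate 1, D2 replicate 2 (higher only) or D3 replicate 1. Rpl4 had 2843 and 2813 CPM on D2 and 2749.7 and 2749 CPM on D3 and did not pass. Ribosome biogenesis fell in 13 of 22 and rose in 1: Ncl, the nucleolar protein nucleolin, went from 4054 and 3969 to 3066 and 2984 CPM (-0.41 ± 0.04).

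Cholesterol and fatty acid synthesis fell in 15 of 23 and rose in 6, with no member changed 2-fold. Fdft1 (-0.58 ± 0.04) and Lss (-0.58 ± 0.04), enzymes of the sterol branch, fell, and Acaca, the rate-limiting enzyme of fatty acid synthesis, had 103 and 103 CPM on D2 and 74.3 and 72.9 CPM on D3 (-0.49 ± 0.04). Msmo1 did not pass (-0.04 ± 0.04). Nrf2 targets and glutathione genes fell in 11 of 19 and rose in 3. Gclm and Gclc, the subunits of the enzyme that limits glutathione synthesis, went from 169.9 and 171 to 69.8 and 68.2 CPM (-1.30 ± 0.05) and from 167 and 172 to 111 and 106 CPM (-0.65 ± 0.04), Gsta4, a glutathione transferase, from 252 and 245 to 122 and 127 CPM and Nqo1, a quinone reductase, from 37.1 and 34.7 to 22.9 and 21.5 CPM (-0.70 ± 0.08). Each was lower in both D3 libraries. Hmox1 had 93.1 and 92.7 CPM on D2 and 88.4 and 86.2 CPM on D3 and did not pass (-0.09 ± 0.04).

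Cell cycle genes fell modestly at mitosis. All 16 mitosis genes fell, by a median of -0.54 and none by 2-fold, Aurka from 153 and 151 to 96.4 and 99.2 CPM (-0.64 ± 0.04) and Ccnb1 from 202 and 197 to 128 and 128 CPM (-0.64 ± 0.04). Of 18 DNA replication genes 13 fell and 5 did not pass. Mcm7, of the replicative helicase, fell from 363 and 363 to 296 and 298 CPM (-0.29 ± 0.03), and Pcna, the polymerase clamp, had 162 and 149 CPM on D2 and 165 and 162 CPM on D3 and did not pass (0.07 ± 0.05). G1 genes moved both ways, with 8 of 21 higher and 6 lower. Ccnd2, a cyclin D, went from 40.1 and 45.5 to 157 and 152 CPM (1.85 ± 0.06, adjusted p = 1.31e-15), and Ccne1, cyclin E, from 189.7 and 186 to 96.2 and 98.8 CPM (-0.95 ± 0.04). The 2 cyclins thus crossed, with Ccnd2 higher and Ccne1 lower in both D3 libraries. Cdk4 had 658 and 657 CPM on D2 and 629.7 and 640.0 CPM on D3 and did not pass (-0.05 ± 0.03).

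Of 18 p53 targets 14 rose and 4 fell. Perp, a membrane protein of desmosomes and apoptosis, went from 26.9 and 26 to 94.7 and 94.1 CPM (1.84 ± 0.07, adjusted p = 8.38e-15), and Phlda3, an Akt inhibitor, from 42.3 and 45.3 to 143 and 144 CPM (1.71 ± 0.05). The Bcl2 family and caspases split into 7 of 22 higher and 8 lower, not far from the shares over all tested genes (29.6% and 28.9%). Mcl1, a survival protein, fell from 555 and 549 to 300.4 and 303 CPM (-0.87 ± 0.03), and so did the death genes Pmaip1 (Noxa), from 388 and 371 to 233 and 216 CPM (-0.76 ± 0.04), and Bcl2l11 (Bim), from 64.9 and 63.9 to 36.5 and 35.9 CPM (-0.83 ± 0.07). The falls thus included genes of both survival and death. Immediate early genes, transcribed within minutes of a stimulus, rose in 11 of 14 and fell in 2. Fosl1 went from 0.688 and 0.692 to 3.13 and 3.27 CPM (2.21 ± 0.22) and Egr3 from 0.295 and 0.0988 to 1.23 and 1.36 CPM (2.69 ± 0.36), while Fosb fell from 6.62 and 7.58 to 3.49 and 2.0 CPM (-1.37 ± 0.20).

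Basement membrane and matrix genes rose in most members. Of 20 collagen chains 14 rose, 2 fell (1 without D2 replicate 1, D2 replicate 2 or D3 replicate 1) and 4 did not pass. The 4 type IV chains of the list, the collagen of basement membranes, all rose, and they lie in head-to-head pairs. Col4a1 and Col4a2 (chr8:11198423-11312826 and chr8:11312805-11449287) went from 385 and 429 to 1000.1 and 1129.5 CPM (1.39 ± 0.09) and from 179 and 199 to 467 and 535 CPM (1.41 ± 0.08). Col4a5 and Col4a6 (chrX:141475385-141689234 and chrX:141165403-141474076) went from 5.8 and 7.48 to 31 and 32.5 CPM (2.26 ± 0.08) and from 1.05 and 1.32 to 21 and 26.8 CPM (4.33 ± 0.15). None of the 4 had overlapping groups. Of 22 laminins, nidogens and matrix glycoproteins 13 rose and 3 fell. Vcan (versican), a proteoglycan of loose embryonic matrix, went from 36 and 35.1 to 178 and 170.2 CPM (2.29 ± 0.06), Lama1, a laminin of early basement membranes, from 199 and 233 to 389 and 457 CPM (0.97 ± 0.09), and Sparc from 263 and 287 to 504 and 574 CPM (0.97 ± 0.07). Lamc1 had 543 and 584 CPM on D2 and 549 and 621 CPM on D3 and did not pass (0.05 ± 0.07). Matrix proteases and their inhibitors rose in 11 of 20 and fell in 5 (3 without D2 replicate 1 or D3 replicate 1), with Timp3 from 20.1 and 21.4 to 46 and 49.1 CPM and Adamts5 from 3.37 and 4.51 to 1.44 and 1.6 CPM (-1.37 ± 0.19).

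Fibroblast genes moved with these lists. Of the 16 feeder markers 10 rose, 2 fell (1 without D2 replicate 2) and 4 did not pass, with a median of 0.86. Their sum, 163 and 201 CPM on D2 against 329 and 319 CPM on D3, did not overlap between the groups. Col1a1, the main chain of fibroblast collagen, went from 47.4 and 59.5 to 101 and 95.5 CPM (0.88 ± 0.08), and Postn (periostin) from 11.5 and 14.7 to 40.5 and 38.3 CPM. The fibroblast surface marker Thy1 had 8.81 and 9.58 CPM on D2 and 8.15 and 7.43 CPM on D3 and did not pass (-0.24 ± 0.11, adjusted p = 0.0718), and Mfap5 fell from 1.9 and 1.94 to 0.613 and 0.74 CPM (-1.50 ± 0.25). The part of remaining feeders in the matrix changes was not tested. By day 6 Col1a1 stood at 8.17 CPM and Postn at 3.51 CPM, while Col4a1 stood at 1532 CPM and Vcan at 353 CPM.

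Adhesion genes showed no single direction, and the cadherin counts were near the shares over all tested genes (29.6% higher and 28.9% lower). Of 20 cadherins and protocadherins 6 rose and 6 fell: Pcdh7 went from 1.38 and 1.55 to 12.7 and 12.1 CPM (3.08 ± 0.15) and Cdh11, a mesenchymal cadherin, from 4.13 and 4.45 to 9.68 and 11.5 CPM (1.30 ± 0.18), whereas Cdh8 fell from 1.08 and 1.02 to 0.0919 and 0.123 CPM (-3.24 ± 0.41). Cdh1 (E-cadherin), the epithelial cadherin, fell from 719 and 737 to 437 and 472 CPM (-0.68 ± 0.07). Of 23 claudins, keratins and other epithelial genes 9 rose and 8 fell. The simple-epithelial keratins Krt8 and Krt18, neighbours on chromosome 15 (chr15:101996711-102004342 and chr15:102028216-102032026), went from 35.9 and 35 to 165 and 215 CPM (2.42 ± 0.10, adjusted p = 6.27e-14) and from 50.2 and 51.4 to 146 and 202 CPM (1.78 ± 0.11). Krt19 went from 5.44 and 6.13 to 46.4 and 56.8 CPM (3.16 ± 0.11) and Dsp, the desmosomal desmoplakin, from 24.8 and 27.9 to 105 and 118 CPM (2.08 ± 0.07). All 4 were higher in both D3 libraries, while Epcam, a surface protein of epithelial and pluripotent cells, fell from 349 and 357 to 164 and 177 CPM (-1.05 ± 0.07). Of 20 Snail, Zeb and Twist factors and mesenchymal genes 13 rose and 1 fell. Snai1, the repressor of E-cadherin at gastrulation, went from 3.27 and 2.47 to 6.46 and 6.63 CPM (1.19 ± 0.15), Prrx1 from 2.03 and 3.0 to 6.8 and 5.8 CPM (1.33 ± 0.16), and Tagln, an actin-binding protein, from 67.3 and 69.5 to 129 and 159 CPM (1.07 ± 0.07). Prrx1 is also among the feeder markers.

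Integrins, the receptors for matrix, rose in 3 of 16, fell in 4 and did not pass in 9. Itga6, a laminin receptor chain, fell from 295 and 301 to 146 and 157 CPM (-0.98 ± 0.05), while Itgb8 and Itgb4 rose from 6.42 and 5.1 to 17.2 and 15.8 CPM (1.52 ± 0.12) and from 9.43 and 8.69 to 19 and 20.9 CPM (1.14 ± 0.10). Itga5, the fibronectin receptor chain, had 58.3 and 60.6 CPM on D2 and 55.9 and 65.4 CPM on D3 and did not pass, although it was called higher without D3 replicate 1 (0.15, adjusted p = 0.0388). Yap and Taz targets and Tead factors split evenly, with 5 of 14 higher and 5 lower. All tested genes nearly did so too (29.6% higher and 28.9% lower). Axl, a receptor kinase, rose from 12.4 and 14.7 to 30.9 and 32.4 CPM (1.22 ± 0.08), Ajuba, an inhibitor of Lats kinases, fell from 298 and 293 to 182 and 193 CPM (-0.66 ± 0.05), and Cyr61 had 96.2 and 98.4 CPM on D2 and 90.9 and 103 CPM on D3 and did not pass.

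Genes of named lineages rose mostly from low levels. Of 14 streak and mesendoderm genes 12 rose and none fell, with a median of 1.86. Mixl1, a homeobox gene of the streak, went from 0.917 and 1.22 to 10.2 and 12.3 CPM (3.40 ± 0.18) and was at 0.322 CPM on day 6. Of 16 endoderm genes 7 rose and 1 fell (none without D2 replicate 2, D3 replicate 1 or D3 replicate 2). Cxcr4, a chemokine receptor, went from 5.08 and 5.37 to 12.6 and 11.6 CPM (1.21 ± 0.09), while Dab2 had 93.5 and 96.2 CPM on D2 and 90.5 and 95.4 CPM on D3 and did not pass. In lateral plate, heart and blood genes 8 of 15 rose (5 without D2 replicate 2 or D3 replicate 1) and 2 fell (1 without D3 replicate 1). Isl1 went from 0.262 and 0.428 to 1.1 and 1.02 CPM (1.61 ± 0.34) and Etv2, a factor of blood and endothelium, from 3.24 and 3.29 to 0.735 and 0.524 CPM (-2.37 ± 0.24). The D2 and D3 libraries of these 4 called genes did not overlap.

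Neural genes moved in both directions. Of 18 tested 11 rose and 4 fell. Pax6, of forebrain and spinal progenitors, went from 21.6 and 21.9 to 4.72 and 3.24 CPM (-2.45 ± 0.12, adjusted p = 9.54e-13), and Olig2 from 55.7 and 51.7 to 12.8 and 12.3 CPM (-2.10 ± 0.07). Pax3, a dorsal neural and somitic gene, went from 0.851 and 0.659 to 7.72 and 8.02 CPM (3.37 ± 0.20), and En1 from 0.262 and 0.395 to 2.63 and 2.87 CPM (3.05 ± 0.26). Pax6 and Olig2 were thus lower and Pax3 and En1 higher in both D3 libraries. Pax7 had 3 counts on D2 and 138 on D3, a ratio of 43.1 (95% interval 14.4 to 211, counting error only). Irx3 had 7.47 and 6.65 CPM on D2 and 7.35 and 6.79 CPM on D3 and did not pass. Of 12 neural crest genes 7 rose and 2 fell, 5 and 2 of them at least 2-fold. Foxd3, named above as a repressor of the primed epiblast and of neural crest, fell (-3.33). Msx2, a Bmp-responsive homeobox gene, went from 1.02 and 0.988 to 4.72 and 6.2 CPM (2.44 ± 0.19), and Tfap2b had 2 counts on D2 and 35 on D3, a ratio of 16.4 (95% interval 4.21 to 141). Sox10, the pan-crest factor, had 1.38 and 1.32 CPM on D2 and 1.38 and 1.05 CPM on D3 and did not pass (-0.15 ± 0.25).

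By number of calls, pluripotency genes split by state. Of 16 naive genes 10 rose and 4 fell, while of 16 epiblast and core genes 13 fell and 2 rose. The medians were 0.50 and -1.39. At least 2-fold, 4 naive genes rose and 2 fell. The summed CPM of the naive list was lower on D3, at 1068 and 1101 against 1294 and 1307 on D2. Tbx3, a factor of naive cells that Wnt is known to raise, went from 14.3 and 15.1 to 45.7 and 45.4 CPM (1.63 ± 0.08, adjusted p = 3.91e-13), and Prdm14 from 1.57 and 1.94 to 3.95 and 5.49 CPM (1.42 ± 0.20). Klf4 rose from 20.7 and 23.1 to 47.3 and 52.7 CPM (1.19 ± 0.08) and Esrrb, whose repression Tcf7l1 is known for, from 78.3 and 83.8 to 152 and 158 CPM (0.94 ± 0.06). D3 was higher in both replicates of all 4. These were taken from the 10 naive genes that rose, Klf4 and Esrrb after their values were seen. The 4 naive genes that fell are not named here. Zfp42 (Rex1) and Dppa3 (Stella), further naive markers, had 22.5 and 24.1 CPM on D2 and 25 and 24.8 CPM on D3 and 23.6 and 22.6 CPM on D2 and 24.7 and 23.9 CPM on D3 and did not pass. Among epiblast genes, the Zic factors Zic2 and Zic5 fell from 80.5 and 82.1 to 28.1 and 24.2 CPM (-1.63 ± 0.06) and from 74.3 and 69.9 to 20 and 17.6 CPM (-1.94 ± 0.06), and Sox3, a SoxB1 factor of early neural cells, from 22.9 and 21.6 to 5.02 and 5.37 CPM (-2.10 ± 0.10).

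Interferon-response and antigen-presentation genes rose in 14 of 23 and fell in 3. Tapbp (tapasin), which loads peptides on class I molecules, went from 17.9 and 19.2 to 54.4 and 60.3 CPM (1.63 ± 0.08). At 1 stretch of chromosome 17, Psmb8, a subunit of the immunoproteasome, rose (0.688 and 0.692 to 2.57 and 3.42 CPM, 2.11 ± 0.24), as did the peptide transporters Tap1 (19.9 and 18.4 to 52.9 and 52.9 CPM, 1.47 ± 0.06) and Tap2 (4.75 and 4.45 to 8.98 and 9.53 CPM, 1.01 ± 0.12). Psmb9, a further proteasome subunit whose annotated end overlaps the start of Tap1 (chr17:34181988-34187764 and chr17:34187553-34197225), fell (5.93 and 4.87 to 3.77 and 3.95 CPM, -0.49 ± 0.14), and how reads in the overlap were assigned is not stated. H2-K1, a class I molecule, had 145 and 146 CPM on D2 and 142 and 146 CPM on D3 and did not pass.

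Ion channels rose in 8 of 20 (5 without D3 replicate 2) and fell in 7. Kcnc1, a fast potassium channel, went from 0.884 and 0.56 to 4.01 and 3.7 CPM (2.41 ± 0.24). A further list of 17 solute carriers held 7 that rose and 7 that fell. Slc16a12, a carrier for creatine, went from 0.196 and 0.0988 to 2.67 and 2.93 CPM (4.21 ± 0.32), and Slc39a8, a zinc and manganese importer, from 8.94 and 8.13 to 19.2 and 20 CPM. Slc7a7, a partner of the arginine export system, fell from 119 and 114 to 30.4 and 28.5 CPM (-1.98 ± 0.06, adjusted p = 1.1e-15), as did the glutamate transporter Slc1a3, from 56.4 and 56.4 to 25.6 and 23.8 CPM (-1.19 ± 0.06).

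By class of gene, 14.5% of 14850 protein-coding genes changed at least 2-fold, against 26.2% of 428 lincRNAs, 23.3% of 403 antisense genes and 4.53% of 1390 processed pseudogenes. These shares depend on expression level and on reads shared between copies, and whether counting used strand is not stated, so they are a description of the table.

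**Figure D5:**
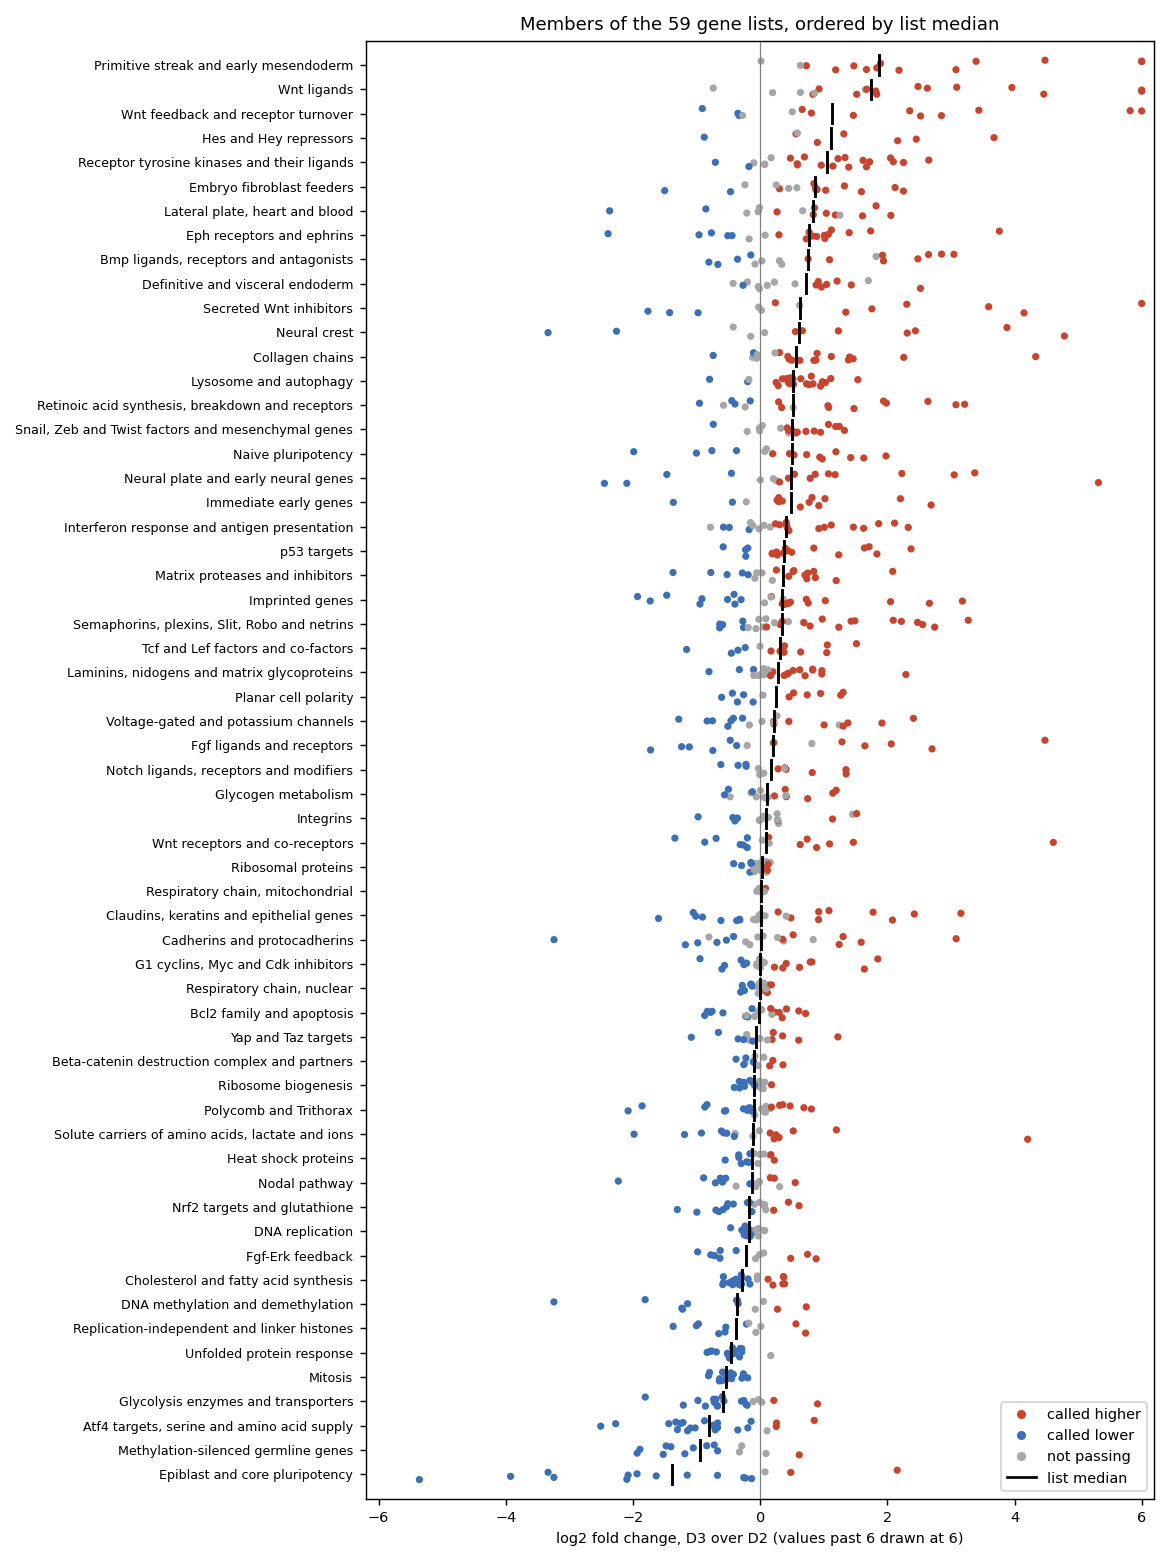
Log2 fold change of D3 over D2 (horizontal axis, values beyond 6 drawn at 6) of every tested member of the 59 gene lists, ordered by list median (black bars), with genes called higher in red, called lower in blue and not passing in grey. Streak genes (median 1.86) and Wnt ligands (1.75) stand at the top and epiblast genes (-1.39), germline genes (-0.95) and the Atf4 list (-0.81) at the bottom.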

How the data were processed

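RNA of whole dishes was measured by RNA-seq in 2 libraries each of D2, D3, day 6, day 7 and day 7 with Gdf11. The authors deposited raw counts per gene symbol (52459 rows, all naming genes), which were used as deposited. The tools named per the submitters' processing notes are limma, featureCounts 1.6.3, HISAT2 2.1.0 and STAR, and the build is mm10. The role of each, the gene model, strand use and the handling of reads that match several places are not given in the sources used here. No molecular identifiers are mentioned, so intervals and floors cover counting error only. Libraries held 31078950 to 33418015 counts.

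The main fit was edgeR 4.0.16 in R 4.3.3 (quasi-likelihood, TMM scaling, default filterByExpr, 1 coefficient per group, all 10 libraries, 5 residual degrees of freedom, median SE of a log2 fold change 0.0895). Benjamini-Hochberg adjustment ran over the 18818 tested genes, with a threshold of 0.05. CPM values are TMM-scaled, and each SE is the size of the log2 fold change divided by the square root of F. The spread of each gene is pooled over the 5 groups. The script was tested on simulated counts, where 18 of 158 calls were false, a share above the threshold of 0.05. The percentage of truly changed genes that were called grew with the simulated ratio. It was 34 (ratio 1.2), 70 (ratio 1.5), 82 (ratio 2) and 94 (ratio 4), with 50 genes each. Small changes were thus often missed there. Gene positions are those deposited with the counts (mm10), and gene classes are from GENCODE vM21, matched by symbol.

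The comparison and the 59 gene lists were chosen with earlier results of these data known, and some lists share genes, so lists are described by counts and medians beside all tested genes and not tested as sets. Genes were named by rule: the 15 largest rises and falls by fold (at least 5 CPM in a group, no overlap) and the 10 largest by CPM. Hox genes, T, Cdx genes and Fgf5 were left out of these. The rule also took up to 4 called and 2 not passing members per list, and all Wnt ligands, receptors, inhibitors, feedback genes and Tcf factors. Named outside it, after their values were seen, were Asns, Atf4, Cdh1, Col1a1, Ddit4, Dlk1, Epcam, Esrrb, Klf4, Lamp1, Meg3, Mirg, Olig2, Psmb9, Rian, Slc16a1, Sox3, Tap1, Tap2, Tfe3, Zic2 and Zic5. Some genes that the rule names are not reported here. Promoter windows come from RefSeq (GRCm38.p6), and all of their 300 bases were searched on both strands. Alternatives were DESeq2 1.42.0, limma-voom (limma 3.58.1), other scaling and filters, the deposited counts per Ensembl gene, the 4 libraries alone, a replicate term and each library left out.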

Additional observations from a re-analysis of the deposited data

How the results depend on the processing

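The counts of called genes and of genes at least 2-fold changed stayed within 1.5 times of 11007 and 2668 under all 13 alternatives. Leaving out 1 library at a time gave 9405 to 9635 called and 2504 to 2591 at least 2-fold, where the group left with 1 library is assumed to vary like the others. Scaling by library totals moved the median gene by 0.08 and the share of calls that were higher from 50.6% to 60.5%. Of 5287 values of named genes under alternatives, 5009 kept their direction and side of the threshold, 58 lost the call and 83 gained it. Of the 110 named genes that did not pass, 53 changed sign under at least 1 alternative, in 136 values, none of them called there. Of the 300 called genes, 1 changed sign: Rpl5, at -0.15 with adjusted p = 0.0364, which was 0.0451 with adjusted p = 0.251 in the counts per Ensembl gene; the cause was not tested. Genes under about 1 CPM have few counts, so a missing call there does not show that a gene was unchanged.

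Over all tested genes, same-numbered replicates did not deviate together (correlations of -0.04 to 0.05 between groups). A correlation over all genes would not show a shared effect on some of them, and the labels do not say what the number stands for. With the replicate number as a block 11091 genes were called and 2663 were at least 2-fold changed, and 2656 of the 2668 remained called.

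Of 1534 list counts 84 moved by over 1.5 times. Those from leaving out a library stand beside most of the lists. With library totals the numbers that fell were 3 and not 5 in the destruction complex, 2 and not 4 among Bmp genes, 1 and not 2 among receptor tyrosine kinases, 4 and not 7 in the nuclear respiratory chain, 1 and not 5 among ribosomal proteins, 8 and not 13 in ribosome biogenesis and in DNA replication, 1 and not 2 among collagens, 3 and not 5 among proteases and 0 and not 1 among endoderm genes. The numbers that rose were 10 and not 6 for Polycomb, 9 and not 5 for the nuclear and 3 and not 1 for the mitochondrial respiratory chain, 15 and not 7 for ribosomal proteins, 4 and not 1 for ribosome biogenesis, 2 and not 0 for DNA replication and 1 and not 0 for the unfolded protein response. With upper-quartile factors 3 nuclear respiratory, 0 mitochondrial and 3 ribosomal protein genes rose. With DESeq2 2 Bmp, 1 collagen, 0 endoderm, 1 lateral plate, 1 feeder and 1 interferon gene fell, and 1 heat shock and 5 channel genes rose. With the 4 libraries alone 13 ribosomal protein, 2 mitochondrial, 2 ribosome biogenesis, 1 replication and 1 unfolded protein gene rose and 5 glycogen genes fell. In the counts per Ensembl gene 3 destruction complex, 2 Tcf and 3 planar polarity genes fell, and 4 apoptosis and 3 nuclear respiratory genes rose. Without a filter on low counts 3 destruction complex, 1 collagen and 0 endoderm genes fell. With a filter of 1 CPM in 2 libraries 1 collagen and 0 endoderm genes fell, and with that filter or the block 1 unfolded protein gene rose. Medians within 0.07 of 0 changed sign under some alternatives in the lists on G1 genes, apoptosis, the respiratory chain, cadherins, claudins and Yap targets.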
